A study of Mus musculus with 9 samples.

Results

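The axon guidance ligand and receptor families were described in the mouse pituitary, as Rathke's pouch of the embryo against the adult gland. Members were the protein coding genes whose symbol names a semaphorin of classes 3 to 7, a plexin, a neuropilin, an Eph receptor, an ephrin, a Slit, a Robo or a netrin (*Ntn1* to *Ntn5*). This rule found 64 genes of the 55450 counted, 21951 of which are protein coding, and a further 3 genes with a matching symbol were not protein coding. The members comprise 35 ligands (8 ephrins, 20 semaphorins, 3 Slits and 4 netrins) and 29 receptors (14 Eph receptors, 2 neuropilins, 9 plexins and 4 Robos). The rule uses symbols alone, although the families were picked with earlier results of these data known.

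Axon guidance molecules are secreted or membrane-bound ligands and their cell-surface receptors, which steer growing axons and migrating cells by attraction or repulsion through the cytoskeleton. Ephrins are membrane-bound and signal both into the cell that carries the Eph receptor and back into their own. Semaphorins signal through plexins, for which neuropilins serve class 3 semaphorins as co-receptors, Slits bind Robos, and netrins bind DCC and UNC5 receptors. The same families act outside the nervous system, in epithelial boundaries, in branching and in blood vessel growth, and Rathke's pouch develops in contact with the ventral diencephalon and is invaded by vessels as it grows.

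RNA was sequenced from 7 embryos and 2 adults, each library from a single animal on a mixed 129Sv/c57BL6J background. The embryos were Sox2 Egfp/+ at embryonic day 13.5, so that 1 *Sox2* allele carried EGFP, and their Rathke's pouch was dissected. The adults were at postnatal week 8, no allele is given for them, and the posterior lobe was removed from the whole gland, which the labels call anterior pituitary. Both sexes were used but the sex of each library is not given, and stage cannot be told apart from genotype or dissection. Read pairs counted on genes numbered 16738863, 28537311, 24816013, 18825731, 24687556, 22393725 and 25755469 in embryos 1 to 7, and 36421545 and 31191117 in adults 1 and 2. A floor of 3 counts, which covers counting error only, corresponded to between 0.0963 and 0.220 CPM in the embryos and to 0.0727 and 0.0843 CPM in the adults. CPM scale each gene's counts to a common library total, with TMM factors, and levels of different genes are compared per kb of the longest annotated transcript.

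The tissue labels were checked against lists of marker genes for cell types and tissues. The transcription factor *Hesx1*, a marker of the pouch epithelium, was counted at a lowest value of 11.0, a median of 22.4 and a highest of 40.4 CPM in the embryos, against 0.339 and 0.562 CPM in adults 1 and 2, and was called higher in the embryo. Of 10 markers of pituitary endocrine cells, 9 were called higher in the adult and *Tshb* was not called. Growth hormone (*Gh*) was counted at 53470.4 and 63848 CPM in adults 1 and 2 and at 1.90 CPM or less in every embryo. It had the highest adult mean of the list, with *Prl* above it in adult 1, and *Cga* was highest in every embryo. The summed level of the endocrine list ran from 889 CPM over a median of 1290.2 to 1940.5 CPM in the embryos, and was 152814 and 160413 CPM in the adults. None of 4 pituitary stem cell markers was called, with sums between 66.2 and 101 CPM in the embryos (median 80.3) and of 89.6 and 79.6 CPM in the adults. Under 4-fold, *Sox2* was lower in the embryo (−0.70, adjusted p = 0.0282) and *Prrx2* higher (1.69, adjusted p = 0.0101), so that similar sums hold genes of both directions. Because 1 *Sox2* allele carried EGFP in the embryos, stage and genotype cannot be told apart for *Sox2*. Of other epithelial and early pituitary genes, *Pitx1* (adjusted p = 0.00304) and *Lhx3* (adjusted p = 0.029) were higher in the embryo under 4-fold. *Cdh1* (0.47), *Six6* (0.74) and *Epcam* (−0.87) had an adjusted p above 0.05, and *Epcam* had 417 and 416 CPM in the adults and 298 CPM or less in every embryo. Among the genes named here for the embryo, *Hesx1* was the only one called.

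Summed levels of markers of other cell types lay apart between the 2 stages for some lists and overlapped for others. Among 8 endothelial markers 2 were called higher in the embryo (*Emcn* and *Cldn5*), with summed levels of 398, 705, 208, 304, 377, 341 and 379 CPM in embryos 1 to 7 and of 148 and 91.8 CPM in the adults. By mean CPM *Cldn5* was highest in the embryo and *Kdr* in the adult. Mesenchymal markers were called higher in the embryo for 5 of 8 and in the adult for 1 (*Prrx1*), at 1897, 2099, 679, 1067, 1699, 1656 and 2370.3 CPM in embryos 1 to 7 and 754 and 505 CPM in the adults, led by *Col3a1* in the embryo and by *Col1a2* in the adult. Pericyte markers, led by *Pdgfrb* in the embryo and by *Rgs5* in the adult, had 1 of 5 called (*Cspg4*, embryo), with sums between 88.4 and 205 CPM in the embryos (median 114) and of 123 and 79.3 CPM in the adults. All 3 of these lists had their highest or next highest sum in embryo 2. Markers of neurons were called higher in the adult for 2 of 7 (*Snap25* and *Syt1*), with sums of 117, 337, 151, 87.4, 58.6, 206 and 76.1 CPM in embryos 1 to 7 and of 580 and 561 CPM in the adults. The sum was led by *Tubb3* in the embryo, and most of it came from *Syt1* (244 and 247 CPM) and *Snap25* (195 and 212 CPM) in the adults. Of 6 markers of the ventral diencephalon and posterior lobe, 3 were called higher in the embryo (*Nkx2-1*, *Rax* and *Foxd1*) and 2 in the adult (*Avp* and *Oxt*). Their sum had a lowest value of 104.0, a median of 135 and a highest of 229 CPM in the embryos, against 52.7 and 69.7 CPM in the adults, with *Avp* at 0 in every embryo. *Rax* had the highest mean in the embryo and *Slc1a3*, at 41.7 and 57.5 CPM, in the adult.

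The remaining lists hold cells that the dissection could carry along. Cartilage and muscle markers, led by *Col2a1*, were called higher in the embryo for 4 of 5, with sums between 156 and 370 CPM in the embryos (median 255) and of 14.7 and 8.04 CPM in the adults, where *Myod1* was at 0. Of these, *Acan* (3.05) was no longer called without any 1 of embryos 2, 5, 6 and 7 (2.99, 2.89, 3.21 and 2.72), adult 1 (3.10) and adult 2 (2.96). Among 5 macrophage and leukocyte markers *Ptprc* was called higher in the adult, with sums between 94.5 and 245 CPM in the embryos (median 115), of 83.5 and 131 CPM in the adults, led by *C1qb* in the embryo and by *Csf1r* in the adult. The log2 fold change of *Ptprc*, −2.91, was −2.03 without adult 2 and no longer passed (adjusted p = 0.0540), and was below 4-fold after correction (−1.32). In bulk RNA, fewer cells of a type and less RNA per cell cannot be told apart.

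Embryos 1 and 4 stood apart from the other 5. The share of read pairs that fell on genes was 59.7% and 62.8% for this pair. It lay between 73.9% and 80.0% for embryos 2, 3, 5, 6 and 7, and was 84.0% for adult 1 and 83.7% for adult 2. Erythroid markers were called higher in the embryo for 5 of 6, with sums of 169175, 18867, 18534, 212136, 15504, 18719 and 6063 CPM in embryos 1 to 7 and of 762 and 1975 CPM in the adults. The embryonic globin *Hbb-y* was the most abundant in every embryo and *Hbb-bs* in both adults. Without embryos 1 and 4, *Hba-a2* and *Hbb-bs* were no longer called (log2 fold changes of 1.78 and 1.50). Without adult 1 and without adult 2 only *Hbb-y* of the 5 stayed called, with values of 4.49 and 5.45 for *Hba-a1*, 3.28 and 5.50 for *Hba-a2*, 4.81 and 5.95 for *Hbb-bt* and 3.11 and 4.61 for *Hbb-bs*. The call of *Hbb-bs* (3.69) also ended without embryo 1 (3.18), embryo 4 (3.14) or embryo 6 (3.89). Once length and GC content were corrected for, as described below, *Hbb-y* alone was called. Counts of members are therefore also given without embryos 1 and 4.

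Of the 64 members, 63 had a mean count of at least 5 and were tested among 19371 genes, and *Ntn5* was not. A gene was called when its Benjamini-Hochberg adjusted p in edgeR's quasi-likelihood test was below 0.05 and its fold change above 4. By this rule 10 members were higher in the embryo, 15.9% of those tested against 11.3% of all genes, and 8 were higher in the adult, 12.7% against 14.6%. Taken in either direction these were 18 members, 28.6% against 25.8%, so that the members as a whole were called about as often as other genes. The members higher in the embryo were the ephrins *Efna2*, *Efna3*, *Efna4*, *Efnb1* and *Efnb3*, the Eph receptors *Epha2* and *Ephb4*, and the semaphorins *Sema3c*, *Sema3g* and *Sema5b*. Those higher in the adult were *Epha5*, *Sema3e*, *Sema6d*, *Plxna3*, *Plxna4*, *Slit1*, *Robo3* and *Ntn4*.

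At any fold change, 17 members had an adjusted p below 0.05 with higher values in the embryo (27.0%, against 24% of all genes) and 15 with higher values in the adult (23.8%, against 27.4%). The CPM of the 2 stages did not overlap for 20 members that were higher in the embryo (31.7%, against 26.2% of all genes) and for 16 that were higher in the adult (25.4%, against 32.9%). With embryos 1 and 4 left out, 10 members were called higher in the embryo (against 11.5% of all genes) and 6 in the adult (9.52%, against 16.2%), *Sema6d* and *Plxna3* being the 2 that were no longer called. The median log2 fold change of the members, embryo over adult, was 0.09, against −0.04 over all genes tested, and it was −0.09 against −0.26 with scaling by library size alone.

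**Figure D1:**
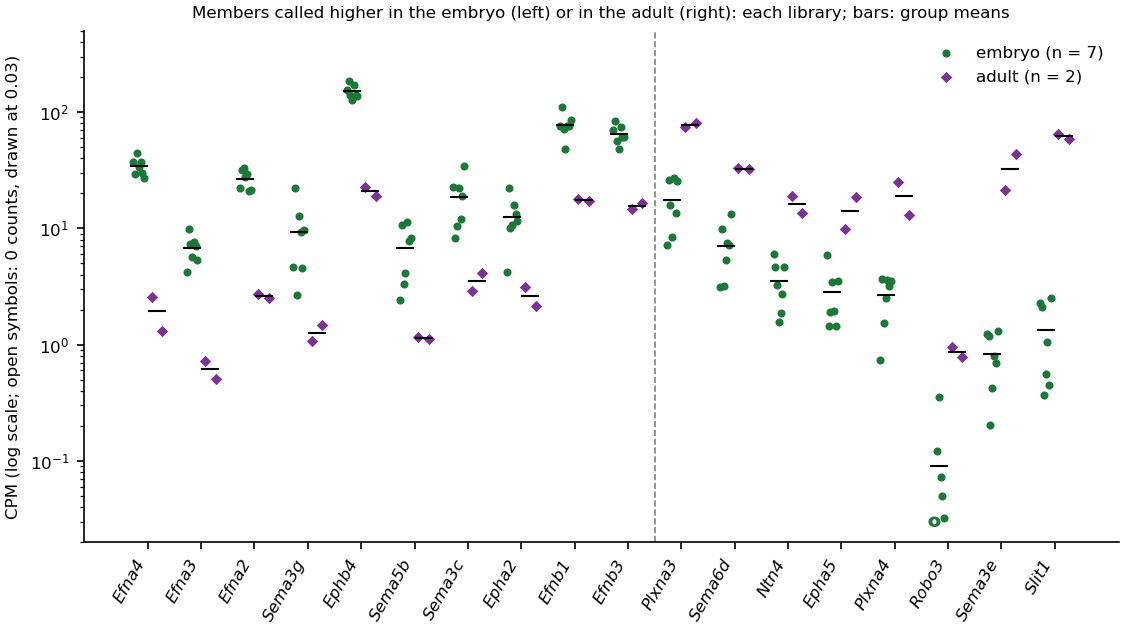
CPM of the 18 called members in each library on a log scale, with embryos as circles (n = 7), adults as diamonds (n = 2) and group means as bars, and open symbols for libraries with 0 counts. For each of the 18 the embryos and adults lie apart, from *Efna4* with the largest log2 fold change in favour of the embryo (4.13) to *Slit1* with the largest in favour of the adult (−5.54).

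The families went different ways. Among ligands, all 8 ephrins had higher values in the embryo, with a median log2 fold change of 2.09 and 5 called. The 20 semaphorins were divided, 8 with positive and 12 with negative values around a median of −0.40, and 3 were called higher in the embryo and 2 in the adult. All 3 Slits had negative values (median −1.74), with 1 called, and the 3 netrins tested had a median of −0.46, with 1 called higher in the adult. Among receptors, 11 of 14 Eph receptors had positive values (median 1.07), with 2 called higher in the embryo and 1 in the adult, and both neuropilins had positive values (median 0.97) without a call. The 9 plexins had a median of −0.64, with 2 called higher in the adult, and the 4 Robos one of −0.47, with 1 called higher in the adult. These medians kept their sign under each way of scaling the libraries, except that those of the semaphorins, plexins, Slits, Robos and netrins became positive once transcript length and GC content were corrected for, as described next.

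**Figure D2:**
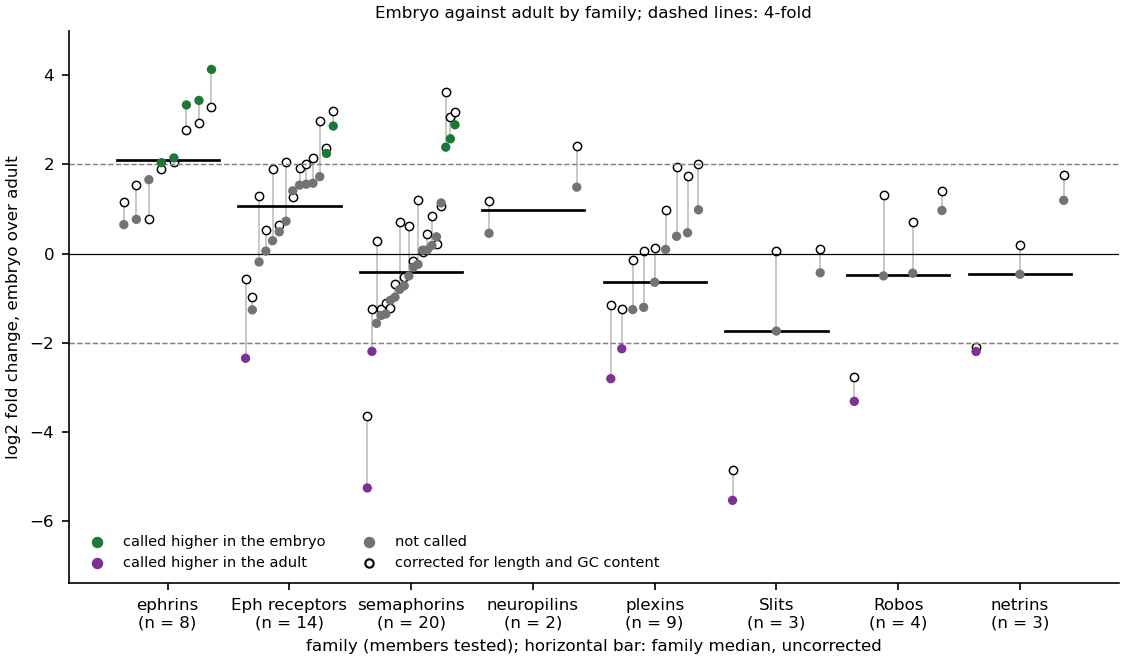
Log2 fold change of each of the 63 members tested, embryo over adult, by family, with filled points as fitted, open points with length and GC content corrected for, bars for uncorrected family medians and dashed lines at 4-fold. The ephrins lie above 0 before and after correction, and in the plexins, Slits and Robos the open points lie above the filled ones.

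Most members are long, and across all genes the log2 fold change went with transcript length. The median of the longest annotated transcript was 4952 bp over the 63 members and 2969 bp over all genes tested, and 42 of the 63 fell in the 3 deciles of longest transcripts. In all genes the median log2 fold change ran from 1.58 in the shortest decile, up to 903 bp, to −1.39 in the longest, from 6388 bp. Across genes, which are not independent replicates, Spearman's correlation between log2 fold change and length was −0.388 over 19371 genes and −0.450 over the 63 members. Of the longest decile, 1.96% were called higher in the embryo and 32.3% in the adult, and of its 19 members none was called higher in the embryo and 5 in the adult. The 10 members called higher in the embryo had a median length of 3585.5 bp, the 8 called higher in the adult one of 6652.5 bp, and the others one of 5038 bp. Against the median of their own length decile, 46 members lay above and 17 below. By family this was so for all 8 ephrins, 12 of 14 Eph receptors, both neuropilins, 7 of 9 plexins and 3 of 4 Robos, but for 11 of 20 semaphorins, 2 of 3 netrins and 1 of 3 Slits.

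A correction that removed the relation of each library's counts to transcript length and GC content brought this correlation to 0.0510 over all genes and to −0.139 over the members. After it, 14 members were called higher in the embryo (22.2%, against 8.56% of all genes) and 4 in the adult (6.35%, against 12.3%). Of the 10 called before in the embryo 9 remained and 5 were added (*Epha3*, *Epha4*, *Ephb3*, *Nrp2* and *Plxnd1*), while of the 8 called in the adult *Sema3e*, *Slit1*, *Robo3* and *Ntn4* remained. The median member moved to 0.84, against 0.04 over all genes. For 12 members the sign changed, always from negative to positive. Whether length itself, or what else goes with it between these stages, underlies the uncorrected differences was not tested, and corrected values are given with the members whose call, direction or size they change.

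**Figure D3:**
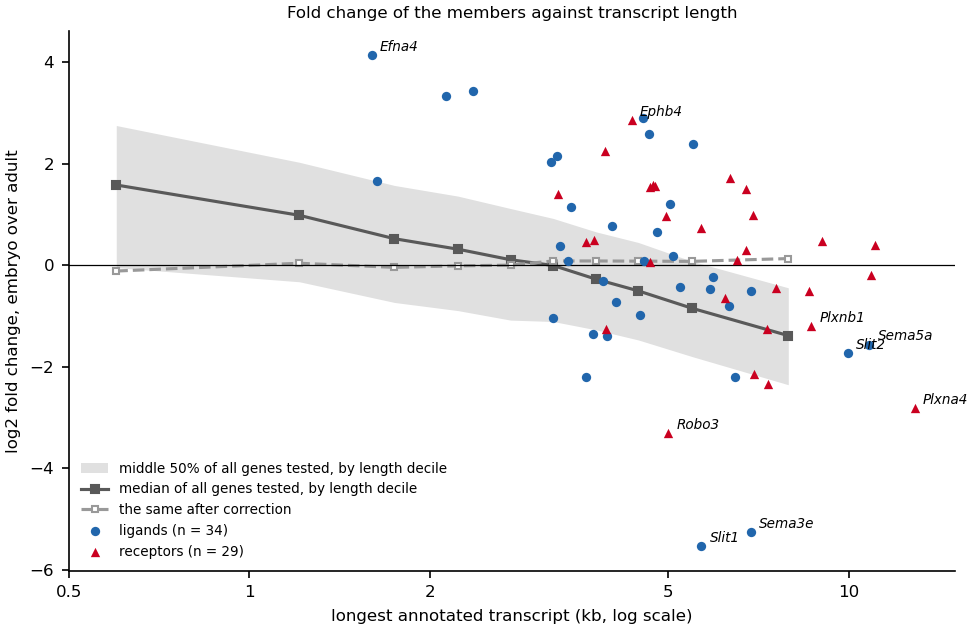
Log2 fold change of the members, embryo over adult, against the longest annotated transcript in kb on a log scale, for 34 ligands (circles) and 29 receptors (triangles), with the median (squares) and the middle 50% (band) of all genes tested by length decile. The decile median falls from 1.58 to −1.39 before correction and stays between −0.12 and 0.13 after it.

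Promoter sequence is shown for 4 called members, the ligands *Efna4* and *Efna2* from those higher in the embryo and the ligand *Sema3e* and the receptor *Epha5* from those higher in the adult. They are the 250 bases before the transcription start in RefSeq for GRCm38.p6, read in the direction of the gene, and capitals mark GGGCGG on either strand, which reads CCGCCC on the other. *Efna4* lies on the minus strand at chr3:89338029-89338278, inside another gene (4731419I09Rik) but in none of its exons, and *Efna2* on the plus strand at chr10:80179232-80179481. *Sema3e* lies on the plus strand at chr5:14025026-14025275 and *Epha5* on the minus strand at chr5:84417383-84417632.
Efna4: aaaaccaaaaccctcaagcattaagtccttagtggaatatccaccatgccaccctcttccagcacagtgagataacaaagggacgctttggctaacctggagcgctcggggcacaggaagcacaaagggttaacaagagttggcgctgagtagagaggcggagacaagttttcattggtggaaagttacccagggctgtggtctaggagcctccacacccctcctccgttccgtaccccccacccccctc
Efna2: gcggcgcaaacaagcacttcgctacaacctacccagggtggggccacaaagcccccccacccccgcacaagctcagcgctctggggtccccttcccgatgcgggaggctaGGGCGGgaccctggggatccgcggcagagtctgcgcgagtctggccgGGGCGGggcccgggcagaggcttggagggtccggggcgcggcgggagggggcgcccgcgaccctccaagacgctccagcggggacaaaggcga
Sema3e: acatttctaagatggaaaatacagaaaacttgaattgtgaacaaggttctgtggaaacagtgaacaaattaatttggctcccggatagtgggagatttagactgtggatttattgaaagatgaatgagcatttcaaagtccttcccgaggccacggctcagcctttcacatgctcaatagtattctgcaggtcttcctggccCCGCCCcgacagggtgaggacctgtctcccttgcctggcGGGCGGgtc
Epha5: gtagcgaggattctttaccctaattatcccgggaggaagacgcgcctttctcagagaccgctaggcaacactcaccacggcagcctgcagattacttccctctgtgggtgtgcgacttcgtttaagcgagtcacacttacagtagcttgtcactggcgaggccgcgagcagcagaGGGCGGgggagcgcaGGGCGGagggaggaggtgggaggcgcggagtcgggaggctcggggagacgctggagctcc
The GC content of these windows was 54.4% for *Efna4*, 73.6% for *Efna2*, 48.0% for *Sema3e* and 62.4% for *Epha5*. RefSeq starts were matched by symbol for 56 of the 64 members, with 72 starts, and *Efnb3*, *Ntn1*, *Plxna1*, *Plxna4*, *Sema3b*, *Sema3f*, *Sema6a* and *Slit1* had no match by symbol in the table of starts used, which says nothing of their annotation elsewhere. On either strand GGGCGG was found in 51 of the 72 windows (70.8%), against 32.7% of 32851 windows of all genes. It was found in 7 of 10 windows of members called higher in the embryo and in 6 of 7 of those called higher in the adult. CCAAT was found in 20 of the 72 (27.8%, against 33.8% of all), TATAAA in 2 (against 12.4%), TAATCC in 2 (against 6.25%) and CANNTG, the E-box, in 36 (50.0%, against 66.2%). Median GC content was 64.2% over the members' windows and 52.4% over all.

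Ephrins are the membrane-bound ligands of Eph receptors, anchored by a lipid in the A class and spanning the membrane in the B class. *Efna4* was counted at a lowest value of 27.1, a median of 34.0 and a highest of 44.3 CPM in the embryos, and at 2.55 and 1.32 CPM in adults 1 and 2. All 7 embryos lay above both adults, and the embryo values stayed within a narrow band. Between stages the log2 fold change was 4.13 ± 0.40 (SE, adjusted p = 2.86e-06), and 3.28 after correction, so that *Efna4* remained the ephrin with the largest difference on either scale.

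*Efna2* had a lowest value of 20.996, a median of 27.6 and a highest of 32.9 CPM in the embryos, against 2.72 and 2.53 CPM in the adults. Its embryos and its adults each clustered tightly and lay far apart, with a log2 fold change of 3.34 ± 0.35 (adjusted p = 6.8e-06). *Efna3*, at a lower level, had 4.25, 7.03 and 9.90 CPM as lowest, median and highest embryo, and 0.727 and 0.506 CPM in the adults. Again no embryo came near an adult, and the log2 fold change was 3.44 ± 0.52 (adjusted p = 0.000117). *Efna3* and *Efna4* are neighbours on chromosome 3, 10424 bp apart, and *Efna1* lies a further 32756 bp away on the same strand.

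*Efna1* was the ephrin with the highest mean level per length in both stages, at 32.7 ± 11.7 CPM per kb in the embryo (SD, n = 7) and 10.4 ± 2.13 in the adult (n = 2). It led in 5 of 7 embryos and in 1 of 2 adults, where *Efnb2* was next with a mean of 10.1 CPM per kb. It was counted at 26.5, 55.4 and 82.2 CPM as lowest, median and highest embryo, and at 19.4 and 14.5 CPM in the adults. Embryo 2 was the highest and embryos 5 and 7 the lowest, and the stages did not overlap. With a log2 fold change of 1.66 ± 0.41 (adjusted p = 0.0040), *Efna1* was under 4-fold and not called, and it had 0.77 after correction (adjusted p = 0.0502).

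Of the 3 B-class ephrins 2 were called, against 3 of 5 in the A class. *Efnb1* (2.15 ± 0.32, adjusted p = 0.000124) ran from 48.5 to 109.8 CPM in the embryos, against 17.9 and 17.1 CPM, and fell short of 4-fold (1.95) when libraries were scaled by size alone. *Efnb3* was near the threshold at 2.04 ± 0.30 (adjusted p = 9.18e-05), with embryos from 47.8 to 83.1 CPM and adults at 14.7 and 16.6 CPM. Its call ended without embryo 2 (1.97), without adult 1 (1.94), with library size alone (1.83), with at least 10 counts asked of every library (1.99) and after correction (1.90, and 1.92 when embryos 1 and 4 were also left out). *Efnb2*, best known as the ligand of EPHB4 in arterial endothelium, was not called (0.65 ± 0.32, adjusted p = 0.106), although its stages did not overlap, at 55.2 to 117 CPM in the embryos and 47.2 and 49.5 CPM in the adults. *Efna5*, which guides retinal and other projections, was not called either, with 94.7 and 86.1 CPM in embryos 1 and 4, between 19.8 and 30.9 CPM in the other 5 and 26.9 and 25.2 CPM in the adults. Without embryos 1 and 4 its log2 fold change of 0.77 was 0.03, and after correction it was 1.54 (adjusted p = 0.0841).

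Semaphorins are secreted in class 3 and membrane-bound in classes 4 to 7, where several also act as receptors. The class 3 genes held the largest differences of the family in both directions. *Sema3e*, the ligand of plexin D1, was counted at 0.203, 0.797 and 1.32 CPM as lowest, median and highest embryo, and at 21.5 and 43.3 CPM in adults 1 and 2. Adult 2 lay well above adult 1, and both far above every embryo, in which the gene had between 5 and 41 counts. In log2 the fold change was −5.26 ± 0.48 (adjusted p = 1.83e-06), and −3.65 after correction.

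*Sema3c*, which guides migrating cells and axons through neuropilins, had a lowest value of 8.21, a median of 19.1 and a highest of 34.2 CPM in the embryos, against 2.91 and 4.13 CPM in the adults. Embryo 7 was the highest and embryos 2 and 3 the lowest, and all 7 lay above both adults. For *Sema3c* the log2 fold change was 2.39 ± 0.54 (adjusted p = 0.00235), and 3.62 after correction. *Sema3g*, a class 3 semaphorin known from endothelium, spread more, with 2.68, 9.35 and 22.1 CPM as lowest, median and highest embryo, and 1.07 and 1.46 CPM in the adults. Embryo 2, which had the highest endothelial sum, was the highest, and embryo 3, which had the lowest, was the lowest. Embryo 4 was next highest at 2.80 CPM per kb, with the next lowest endothelial sum (304 CPM). Embryo 1, with the next highest sum (398 CPM), had *Sema3g* at 1.02 CPM per kb, against 0.590 in embryo 3. The part of endothelial cells in its log2 fold change of 2.89 ± 0.75 (adjusted p = 0.00559) was not tested, and without adult 1 the gene was no longer called (2.66, adjusted p = 0.0619).

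*Sema3f*, a repellent that acts through neuropilin 2, was the semaphorin with the highest level per length in every library. At 20.4 ± 4.99 CPM per kb in the embryo and 19.3 ± 1.20 in the adult, its levels in the 2 stages lay within the spread of the embryos. In CPM its embryos had a lowest value of 52.2, a median of 65.5 and a highest of 93.0, and its adults 68.5 and 62.8. The adults fell in the middle of the embryos, and the log2 fold change of 0.08 ± 0.28 did not pass (adjusted p = 0.836). The other class 3 members, *Sema3a*, *Sema3b* and *Sema3d*, had log2 fold changes of −0.24, 1.14 and −0.80, and none was called. After correction *Sema3a* (1.20) and *Sema3d* (0.72) took the opposite sign.

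*Sema5b*, a transmembrane semaphorin of class 5, was counted at 2.42, 7.77 and 11.3 CPM as lowest, median and highest embryo, and at 1.16 and 1.12 CPM in the adults. The embryos fell into a lower set (1, 3 and 4) and a higher set (2, 5, 6 and 7), with every one above the adults. For *Sema5b* the log2 fold change was 2.58 ± 0.65 (adjusted p = 0.00475), and 3.30 after correction when embryos 1 and 4 were also left out. *Sema5a*, of the same class, had −1.56 ± 0.33 (adjusted p = 0.00134) below the 4-fold limit, and 0.29 after correction, so that its direction depended on the correction.

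*Sema6d*, a ligand of plexin A1, had 3.15, 7.23 and 13.4 CPM as lowest, median and highest embryo, against 32.7 and 32.5 CPM in the adults. The adults were alike and lay above all 7 embryos, of which 1 and 3 were the lowest. At −2.19 ± 0.43 (adjusted p = 0.000792), its log2 fold change became −1.96 without embryos 1 and 4 and −1.24 after correction, and the gene was called in neither. The 6 class 4 semaphorins, which include the immune semaphorins, had a median log2 fold change of −0.85 and no call, with *Sema4b* (−1.39, adjusted p = 0.00226) and *Sema4d* (−0.98, adjusted p = 0.0168) below 0.05 and the other 4 not. In class 6, *Sema6b* also had an adjusted p below 0.05 (−1.35, adjusted p = 0.0061), and *Sema6a* (−0.50) and *Sema6c* (0.18) did not. These 2 had 0.62 and 0.84 after correction, the former with the opposite sign.

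Slits are secreted repellents that bind Robos. *Slit1* was counted at 0.366, 1.05 and 2.50 CPM as lowest, median and highest embryo, and at 65.4 and 59.2 CPM in adults 1 and 2. It had between 8 and 78 counts in the embryos, and was the Slit with the highest level per length in both adults, 11.0 ± 0.767 CPM per kb. Its difference gave a log2 fold change of −5.54 ± 0.53 (adjusted p = 2.7e-06), the largest of any member in absolute value, and it was −4.86 after correction.

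*Slit3* led the Slits per length in the embryo, at 2.80 ± 1.78 CPM per kb, although only in 4 of 7 embryos, with *Slit2* at 2.23 ± 0.636. Its CPM were 5.13, 9.77 and 30.6 as lowest, median and highest embryo, and 21.4 and 18.2 in the adults. Embryos 5 and 7 lay above the adults and the others below them, and the log2 fold change of −0.43 ± 0.52 did not pass (adjusted p = 0.51) and was 0.10 after correction. *Slit2* lay between 14.7 and 32.0 CPM in the embryos and at 76.8 and 71.5 CPM in the adults without overlap. A log2 fold change of −1.74 ± 0.28 (adjusted p = 0.000196) was below 4-fold, and at a transcript length of 9960 bp it was 0.07 after correction (adjusted p = 0.808).

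Netrins are laminin-like secreted cues. *Ntn4*, a netrin of basement membranes, had 1.55, 3.25 and 6.01 CPM as lowest, median and highest embryo, and 18.9 and 13.6 CPM in adults 1 and 2. Both adults lay above every embryo, and the log2 fold change was −2.20 ± 0.44 (adjusted p = 0.0009). Without adult 1 it was −1.96 and no longer called. *Ntn3* had 12.2, 17.2 and 28.3 CPM as lowest, median and highest embryo, and 7.18 and 9.08 CPM in the adults. Embryos 1 and 2 were the highest, and all 7 lay above the adults at a log2 fold change of 1.20 ± 0.37 (adjusted p = 0.0143), which is under 4-fold. The exons of *Ntn3* overlap those of *Tbc1d24* on the same strand, so that its counts are uncertain.

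Per length, *Ntn3* led the netrins in the mean of the embryos (3.70 ± 1.12 CPM per kb) and in 5 of 7 of them, with *Ntn1* ahead in embryos 2 and 7, and *Ntn4* in the adult (4.46 ± 1.01 CPM per kb). *Ntn1*, the floor plate netrin, was counted at 44.1 CPM in embryo 2, between 4.87 and 18.0 CPM in the other 6 embryos, and at 22.5 and 16.3 CPM in the adults. Its log2 fold change was −0.46, and 0.19 after correction, and it was called in neither. *Ntn5*, which was not tested, had between 0 and 0.440 CPM in the embryos and 0.0242 and 0.112 CPM in the adults.

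Eph receptors are receptor tyrosine kinases of ephrins. *Ephb4*, the venous endothelial and epithelial receptor of ephrin B2, had the highest level per length of the family in every library, 34.8 ± 4.85 CPM per kb in the embryo and 4.78 ± 0.624 in the adult. Its CPM were 126, 141 and 185 as lowest, median and highest embryo, and 22.7 and 18.8 in the adults. Embryo 2 was the highest and the embryos varied little, by 13.96% (SD over mean), so that the stages lay far apart. For *Ephb4* the log2 fold change was 2.86 ± 0.29 (adjusted p = 5.19e-06). Embryo 3, with the lowest endothelial sum (208 CPM), had 140.2 CPM of *Ephb4*, and embryo 2, with the highest (705 CPM), had 185 CPM, and the part of endothelial cells in the difference between stages was not tested.

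*Epha2*, a receptor of epithelial cells, was counted at 4.25, 11.6 and 22.1 CPM as lowest, median and highest embryo, and at 3.15 and 2.14 CPM in adults 1 and 2. Embryo 1 lay close to adult 1 and embryo 2 was the highest. The log2 fold change of 2.25 ± 0.54 (adjusted p = 0.00338) was 1.98 without adult 2 and no longer passed (adjusted p = 0.0558).

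*Epha5*, a receptor of neurons, was the Eph receptor called higher in the adult. It had 1.44, 1.96 and 5.93 CPM as lowest, median and highest embryo, and 9.89 and 18.5 CPM in adults 1 and 2. Embryo 1 was the highest embryo and came closest to adult 1, and the adults themselves lay apart. Its log2 fold change of −2.35 ± 0.48 (adjusted p = 0.0012) ended as a call without adult 2 (−1.84) and after correction (−0.57, adjusted p = 0.294), its transcript being 7328 bp long at a GC content of 40.1%. Of 7 neuron markers only *Snap25* and *Syt1* were called higher in the adult. *Elavl4* (−1.69) and *Dcx* (−1.37) were also lower in the embryo at an adjusted p below 0.05, under 4-fold. *Elavl3* (−1.03), *Tubb3* (0.41) and *Stmn2* (1.13) did not pass, with *Tubb3* and *Stmn2* of the opposite sign. The part of neurons in this difference was not tested.

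Of the other 11 Eph receptors, *Epha1* (1.41), *Epha4* (1.73), *Ephb1* (1.54) and *Ephb3* (1.56) had an adjusted p below 0.05 under 4-fold, all higher in the embryo. After correction *Epha4* (2.97), *Ephb3* (2.00) and *Epha3* (2.06, from 0.73) were called. With embryos 1 and 4 left out as well, *Epha4* (2.83) stayed called, *Ephb3* (1.96) and *Epha3* (1.63) did not, and *Ephb1* (2.02) was added. *Epha10* and *Ephb6* had log2 fold changes of 0.06 and 0.49. *Ephb2* (−0.19) overlapped between stages and took the opposite sign after correction (1.29) and without embryos 1 and 4 (0.04). *Epha7* (0.29) had −0.20 without embryos 1 and 4 and 1.89 after correction, and was not called. *Epha6* and *Epha8* were at or below 1.84 CPM in every library.

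Neuropilins bind class 3 semaphorins and VEGF. *Nrp2*, the receptor of *Sema3f* and of lymphatic VEGF, led the pair per length in every library, with 15.2 ± 5.69 CPM per kb in the embryo and 5.40 ± 0.901 in the adult. It had 73.1, 89.4 and 176 CPM as lowest, median and highest embryo, and 40.6 and 32.0 CPM in the adults. Embryos 5 and 7 were the highest, and all 7 lay above both adults. The log2 fold change of 1.49 ± 0.38 (adjusted p = 0.0045) was under 4-fold, and it was 2.42 and called after correction (adjusted p = 3.14e-05). *Nrp1*, which has a small RNA gene within its exons on the same strand, overlapped between stages (0.46 ± 0.41, adjusted p = 0.373), and had 1.18 after correction (adjusted p = 0.0289).

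Plexins are the transmembrane receptors of semaphorins and act on small GTPases. *Plxnb2*, a receptor of class 4 semaphorins, had the highest mean level per length of all members in both stages, at 42.8 ± 9.14 CPM per kb in the embryo and 40.1 ± 1.04 in the adult. Among single libraries it led in both adults and in 4 of 7 embryos, with *Ephb4* ahead in embryo 1 and *Efna1* in embryos 2 and 4. In CPM its embryos had a lowest value of 207, a median of 289 and a highest of 374, and its adults 265 and 256. The adults lay inside the range of the embryos, and the log2 fold change was 0.09 ± 0.28 (adjusted p = 0.793). After correction it was 0.98 (adjusted p = 0.00446), under 4-fold, so that whether *Plxnb2* differed depended on the correction.

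*Plxna3*, a receptor for complexes of class 3 semaphorins with neuropilins, had 7.25, 15.9 and 27.3 CPM as lowest, median and highest embryo, and 74.6 and 81.3 CPM in the adults. Embryos 1 and 4 were the lowest, and both adults lay far above all embryos. For *Plxna3* the log2 fold change was −2.13 ± 0.40 (adjusted p = 0.000639). It was no longer beyond 4-fold without embryo 1 (−1.95), without embryo 4 (−1.96), without both (−1.82) and after correction (−1.23).

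*Plxna4*, a plexin of neurons with the longest transcript of all members (12877 bp), was counted at 0.733, 3.22 and 3.68 CPM as lowest, median and highest embryo, and at 24.9 and 13.0 CPM in adults 1 and 2. Embryos 1 and 3 were the lowest, and the stages did not overlap. Its log2 fold change of −2.81 ± 0.46 (adjusted p = 0.000219) was −1.15 after correction (adjusted p = 0.0562). Of 7 neuron markers, 4 were higher in the adult at an adjusted p below 0.05 and 0 in the embryo, as given for *Epha5*. The part of neurons was not tested.

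Among the other plexins, *Plxnb1* (−1.21 ± 0.27, adjusted p = 0.00218) lay between 53.5 and 115 CPM in the embryos and at 193 and 200 CPM in the adults, and had 0.07 after correction. *Plxnc1*, a receptor of *Sema7a* with a small overlapping gene on its strand, had −1.26 (adjusted p = 0.024), and −0.15 after correction. *Plxnd1*, the endothelial receptor of *Sema3e*, was counted at 128 CPM in embryo 2, between 39.2 and 78.8 CPM in the other embryos and at 38.5 and 28.3 CPM in the adults. At 0.98 ± 0.43 it was not called (adjusted p = 0.0687), and was 2.00 and called after correction. Its ligand *Sema3e* thus had the opposite sign between stages. *Plxna1* (0.47), *Plxna2* (0.39) and *Plxnb3* (−0.64) overlapped between stages and were not called. After correction *Plxna1* had 1.74 (adjusted p = 0.00102), *Plxna2* 1.95 (adjusted p = 0.00152) and *Plxnb3* 0.14, and *Plxna2* was called (2.13) when embryos 1 and 4 were also left out.

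Robos are the receptors of Slits. *Robo1* led the family per length with 3.58 ± 1.49 CPM per kb in the embryo and 4.87 ± 0.453 in the adult, although *Robo4* was ahead in embryo 2 and by the union of annotated exons in the mean of the embryos. It had 18.6, 24.2 and 51.1 CPM as lowest, median and highest embryo, and 39.2 and 34.4 CPM in the adults. Embryo 7 alone lay above the adults, and the log2 fold change of −0.44 ± 0.35 did not pass (adjusted p = 0.303). It was 0.71 after correction. *Robo2* had a similar value (−0.50) and 1.32 after correction.

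*Robo3*, known from commissural neurons, was barely counted in the embryos, with 0 to 5 counts a library and at most 0.353 CPM (embryo 4), and it had 39 and 28 counts in the adults (0.946 and 0.787 CPM). Its log2 fold change of −3.31 ± 1.02 (adjusted p = 0.0143) was not called without adult 1 (adjusted p = 0.0883) or without adult 2 (adjusted p = 0.0646), and was −4.02 without embryo 4. *Robo4*, the endothelial Robo, lies 553 bp from *Robo3* on chromosome 9 on the opposite strand, and had 0.97 ± 0.52 (adjusted p = 0.132). Embryo 2, with the highest endothelial sum, had the highest *Robo4* (20.6 CPM), the other embryos 6.19 to 17.7 CPM and the adults 8.39 and 3.46 CPM.

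Summed per length, the families kept different ranks in the 2 stages. These sums, and the shares that follow, were not corrected for the relation of counts to transcript length and GC content. After that correction the median log2 fold changes of the semaphorins, plexins, Slits, Robos and netrins were positive, as given above. The ephrins had 140.3 ± 14.7 CPM per kb in the embryo and 39.9 ± 2.53 in the adult, the Eph receptors 73.6 ± 5.69 and 27.3 ± 0.0339, and for both every embryo lay above the adults. Within the ephrins the A class had a sum 4.12 times and the B class 2.94 times the adult's, on means per stage, and within the Eph receptors the factors were 1.75 for the A class and 3.33 for the B class. The semaphorins had 63.9 ± 8.49 CPM per kb in the embryo and 85.0 ± 2.17 in the adult, without overlap, and the Slits 5.26 ± 1.98 and 22.2 ± 1.57, without overlap. For plexins (74.1 ± 17.9 and 89.5 ± 1.47), Robos (8.02 ± 2.29 and 9.17 ± 1.17) and netrins (7.15 ± 3.22 and 9.41 ± 1.46) the sums in CPM per kb overlapped between stages. Neuropilins summed to 20.9 ± 6.70 CPM per kb in the embryo and 9.60 ± 1.36 in the adult, without overlap.

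The make-up of the families also differed. *Ephb4* supplied 47.1 ± 4.29% of the summed CPM per kb of the Eph receptors in the embryo and 17.5 ± 2.31% in the adult, where *Ephb2* followed closely (4.35 ± 0.323 CPM per kb). *Plxnb2* supplied 58.2 ± 3.89% of the plexin sum in the embryo and 44.8 ± 0.427% in the adult, where *Plxnb1* was next with 22.7 ± 0.538 CPM per kb. In the ephrins, *Efna4* made up 15.3 ± 2.60% of the sum in the embryo and 2.99 ± 1.17% in the adult, and *Efnb2* made up 11.6 ± 4.59% in the embryo and 25.4 ± 2.45% in the adult. *Slit1* was 4.97 ± 4.18% of the Slit sum in the embryo and 49.4 ± 0.0487% in the adult. Shares are of levels per length and carry no test.

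**Figure D4:**
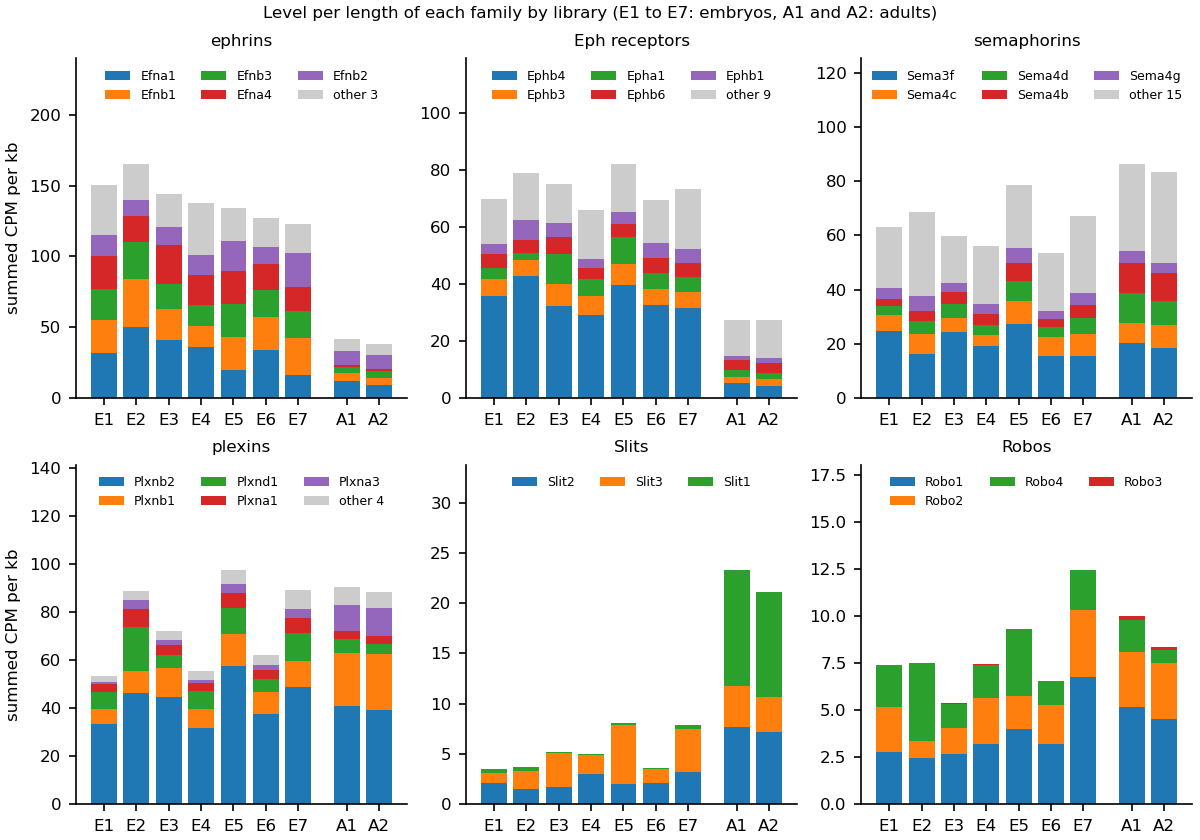
Summed CPM per kb of the longest transcript in each library (E1 to E7 embryos, A1 and A2 adults) for 6 families, with the most abundant members coloured and the others in grey. The ephrin bars lie between 123 and 166 in the embryos and at 41.7 and 38.1 in the adults, and the Slit bars between 3.48 and 8.06 and at 23.3 and 21.1.

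The members varied to different degrees among the 7 embryos. Over the 56 members whose mean count reached 100, the SD over mean among embryos had a median of 38.0%, and ran from 12.5% in *Ephb6* to 101% in *Ntn1*. *Ephb3* (13.3%), *Ephb4* (13.96%) and *Efna4* (17.5%) were among the steadiest, and *Sema7a* (77.9%), *Efna5* (71.1%), *Sema3g* (70.6%) and *Slit1* (70.3%, at low counts) among the most variable. *Sema7a* had 13.7 CPM in embryo 2 and between 1.83 and 5.55 CPM in the other 6, and the adults at 4.58 and 3.32 CPM lay among them.

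**Figure D5:**
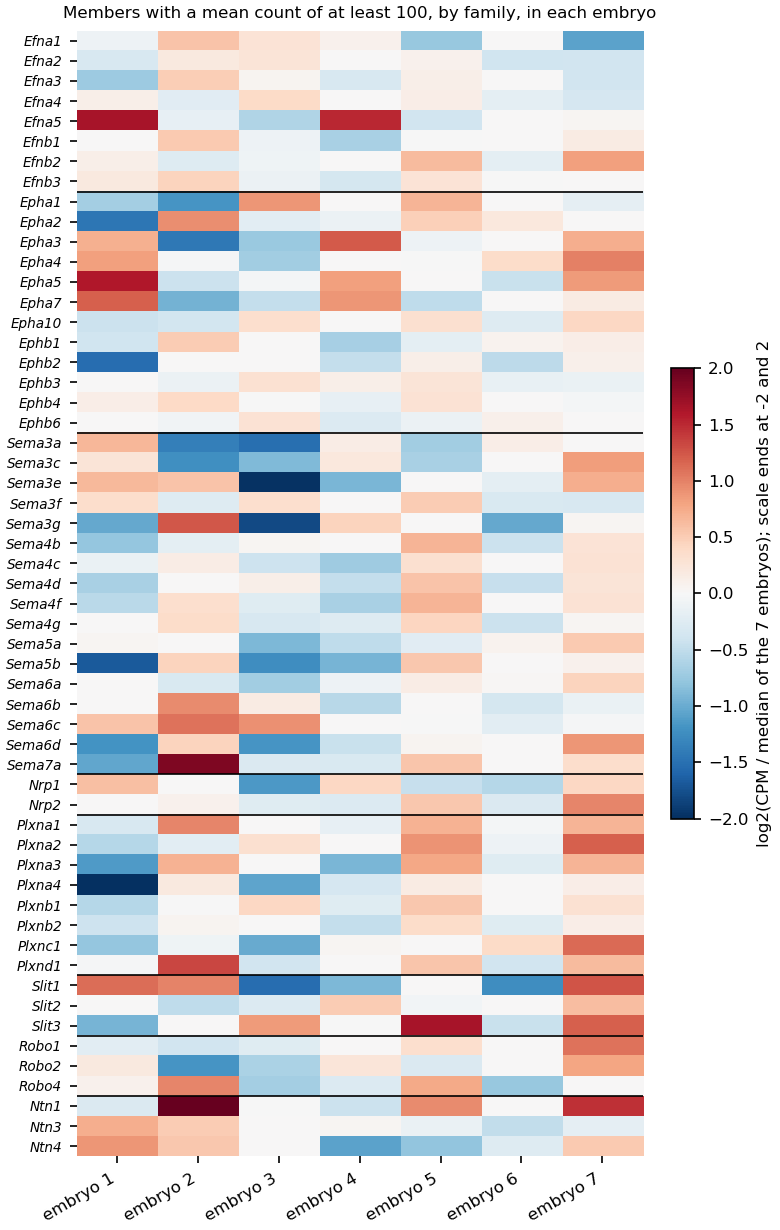
Log2 of the CPM in each embryo over the median of the 7 embryos, for the 56 members with a mean count of at least 100, ordered by family, with red for higher and blue for lower values and the scale ending at −2 and 2. *Efna5* and *Epha7* are high in embryos 1 and 4, and *Ntn1* and *Sema7a* in embryo 2.

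Embryo 2 was the highest embryo for 18 of 63 members (28.6%, against 14.5% of all genes tested), among them *Efna1*, *Efnb1*, *Ephb4*, *Sema3g*, *Plxnd1*, *Robo4* and *Ntn1*. The same embryo had the highest sums of the endothelial, pericyte, neuron, diencephalic and macrophage markers, and the part of these cells was not tested. Embryos 1 and 4 were the 2 highest embryos for *Efna5*, *Epha7* and *Sema3a* (4.76%, against 11.4% of all genes). *Epha7* had 25.4 and 20.4 CPM in these and between 5.78 and 12.5 CPM in the others, and *Sema3a* 22.2 and 15.5 CPM against 4.91 to 15.3 CPM. The median GC content of these 3 transcripts was 41.7%, against 56.3% for the other members tested. Over all genes it was 47.3% for those with this pattern and 49.6% for all tested. After correction for length and GC content these embryos were the 2 highest for 7 members (11.1%, against 15.1% of all genes), the same 3 with *Epha3*, *Epha5*, *Nrp1* and *Ntn3*. Embryos 1 and 4 also had the lowest counted shares and the highest erythroid sums, as given above, and whether these bear on the 3 genes was not tested.

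Genes that act with these families were taken from 7 lists of 79 genes in all, of which 4 were called higher in the embryo (against 11.3% of all genes) and 13 in the adult (against 14.6%). After correction these were 8 (against 8.56%) and 6 (against 12.3%). Their median log2 fold change was −0.43, against −0.04 over all genes, and 0.24 against 0.04 after correction. Of 8 netrin and RGM receptors, 4 were called higher in the adult and none in the embryo, where *Unc5d* (0.82) was called after correction (2.65). The netrin receptor *Unc5a* had 2.86 ± 1.32 CPM in the embryo and 67.4 ± 10.2 in the adult (−4.54, adjusted p = 7.27e-07), *Dscam* −4.20 and *Dscaml1* −4.42, and these became −4.23, −2.96 and −3.49 after correction. *Dcc*, the attractive netrin receptor, had −2.40, which was −3.39 without embryos 1 and 4, and −0.49 and no longer called after correction. The netrin *Ntn4* and these 4 receptors were thus called higher in the adult, *Dcc* only before correction. At any fold change, 5 of the 8 receptors had an adjusted p below 0.05 with higher values in the adult. In the embryo 1 did, *Unc5b* (1.01, adjusted p = 0.0255, and 1.76 after correction), and so did the netrin *Ntn3* (1.20). Among 7 neuron markers, 2 were called higher in the adult (*Snap25* and *Syt1*). Of the other 5, *Elavl4* (−1.69) and *Dcx* (−1.37) were lower in the embryo at an adjusted p below 0.05 under 4-fold, while *Elavl3* (−1.03), *Tubb3* (0.41) and *Stmn2* (1.13) were not called. The part of neurons was not tested.

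Of 5 semaphorin co-receptors, the cell adhesion molecule *Chl1* (−3.31) and the HGF receptor *Met* (−2.63) were called higher in the adult, though not after correction (−1.54 and −1.30), when the receptor kinase *Erbb2* (1.92) was called higher in the embryo (2.44). None of 8 other guidance ligands was called by edgeR, and 1 had an adjusted p below 0.05 with higher values in the embryo and 3 in the adult. After correction *Flrt2* (3.16, from 1.50) was called higher in the embryo and *Ntng2* (−2.54) in the adult. Of 18 plexin effectors, the small GTPase *Rhod* (3.81, and 2.84 after correction), the adaptor *Gipc1* (2.57, and 1.75 and not called after correction) and the oxidoreductase *Mical1* (2.46) were called higher in the embryo, and the kinase *Fes* (1.75) was added after correction (2.03). The nucleotide exchange factor *Arhgef12* was called higher in the adult at −2.05, a value that dropped below 4-fold, to between −1.94 and −1.89, without any 1 of embryos 1, 3, 4 and 6 and adult 2, and it was −0.51 after correction.

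Of 12 Eph and ephrin effectors, 3 exchange factors were called higher in the adult. These were *Ngef* (−2.40, but −1.87 with an adjusted p of 0.180 without adult 2), *Tiam1* (−2.26, and −1.27 after correction) and *Vav3*. *Vav3*, at −2.02, was below 4-fold without any 1 of embryos 1, 3 and 4 (−1.96, −1.96 and −1.79), without adult 2 (−1.89) and after correction (−1.10). After correction *Itsn1* (2.02, from 0.25) was called higher in the embryo. Of 11 Robo effectors, the heparan sulfate proteoglycan *Gpc1*, which binds Slits, was called higher in the embryo (means of 164 CPM against 25.2 CPM) and the Ras exchange factor *Sos1* in the adult (−2.49, and −0.58 after correction). Of 17 shared cytoskeletal effectors, the kinases *Pak3* (−4.18, and −4.83 without embryos 1 and 4) and *Rock2* (−2.78) were called higher in the adult, and after correction *Pak3* alone (−2.21, against −1.02 for *Rock2*).

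Some members lie near each other. In 11 pairs of neighbouring members the genes were less than 1 Mb apart, which takes in 19 members, and in 1 pair, *Efna3* and *Efna4*, both genes were called. In the chain of *Sema3d*, *Sema3a* and *Sema3e* on chromosome 5, with log2 fold changes of −0.80, −0.24 and −5.26, *Sema3e* alone was called. *Plxna3* was called higher in the adult on chromosome X and *Plxnb3* (−0.64), 556551 bp away, was not, and *Sema3b* (1.14) and *Sema3f* (0.08) lie 72270.0 bp apart on chromosome 9.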

How the data were processed

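RNA from 7 embryonic and 2 adult single-animal libraries was read in pairs, and the authors trimmed reads with Trimmomatic 0.39 and deposited raw read pair counts per gene from STAR 2.7.5b. The strand-specific column was used, and gene types, transcript lengths and GC content came from GENCODE M21. Genes whose mean count reached 5 (19371 of 55450) were fitted with stage as the only term in edgeR 4.0.16 under R 4.3.3, by its quasi-likelihood test with TMM normalisation. A call needed a Benjamini-Hochberg adjusted p below 0.05, taken over all genes tested, and a fold change above 4. CPM used the TMM effective library sizes. The p-values measure spread between these animals, of which only 2 were adult. Depth lay between 16738863 and 36421545 counted read pairs. Tables and plots used Python 3.11.15, pandas 2.3.3 and matplotlib 3.10.9. The procedure was tested on simulated data.

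Members, pathway lists and marker lists were chosen with earlier results of these data known. Values of the lowest, median and highest embryo and of both adults are given, in each direction, for up to 8 called members with the largest log2 fold change among those whose mean count reached 100 and whose stages did not overlap (7 such members were higher in the adult), and for the member of each family and stage with the highest level per length. Library values of other members were chosen after they were seen. Alternatives were DESeq2 1.42.0 (Wald test, or its size factors in edgeR), library size alone, 3 other filters, the unstranded count, other fold thresholds, leaving out each library or embryos 1 and 4, the replicate number as a term, and a correction of each library for length and GC content. The correction used natural splines with 4 degrees of freedom each, fitted where the mean count reached 50. Sex was not a term because it is not given per library. Splicing and sequence variants were not analysed here.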

Additional observations from a re-analysis of the deposited data

Results flagged for a closer look

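In 7 of 71 groups of embryo values (63 members and 8 family sums), the highest or lowest of the 7 embryos was separated from its nearest neighbour by more than Dixon's 95% critical ratio of 0.568 of the whole range. Chance alone flags about 1 in 20 groups, and 4 of the 7 were in embryo 2. *Ntn1* had 44.1 CPM in embryo 2, against 18.0 CPM in the next embryo. *Sema7a* had 13.7 CPM in embryo 2 (next 5.55), *Sema6b* 13.1 CPM (next 7.60) and *Plxnb3* 1.52 CPM (next 0.792). *Robo1* had 51.1 CPM in embryo 7 (next 30.4). *Robo3* had 0.353 CPM in embryo 4 (next 0.122), from 5 counts. *Sema3b* was low in embryo 1, at 1.25 CPM, where the next embryo had 3.25 CPM. What sets these embryos apart was not tested.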

How the results depend on the processing

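Of the 18 called members, 5 of 10 higher in the embryo and 2 of 8 higher in the adult stayed called under each of 20 alternatives that tested them, and 42 of 63 members tested changed sign under none. These 20 do not include the other fold thresholds, whose counts are given below. Of called pathway genes 7 of 17 stayed called throughout. As reported, counts were 2182 genes higher in the embryo and 2819 in the adult, 10 and 8 members, and a member median of 0.09. At least 10 counts in every library left 1276 and 1358 genes and 5 members in the adult, where 57 members were tested and *Slit1*, *Sema3e* and *Robo3* were not. A fold change above 2 gave 4155 and 4805 genes and 17 and 14 members, no fold threshold 4650 and 5298 genes and 17 and 15 members, and glmTreat against 4-fold 613 and 1131 genes and 4 and 2 members. The length and GC correction gave 4 members in the adult and a median of 0.84, and without embryos 1 and 4 it gave 4 and 0.77. Leaving out 1 library gave 1482 to 2362 and 2201 to 2958 genes, 8 to 10 and 6 to 8 members, and medians from 0.010 to 0.35. With 1 adult left, it is assumed to vary like the embryos.

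The log2 fold changes that took the opposite sign, the cause of which was not tested, are as follows. With library size alone they were *Epha7* −0.0094, *Epha10* −0.13, *Sema3f* −0.15, *Sema4g* −0.11, *Sema6c* −0.035 and *Plxnb2* −0.088. Without embryos 1 and 4 they were *Epha7* −0.20 and *Ephb2* 0.039. After correction, with all libraries and then without embryos 1 and 4, *Ephb2* had 1.29 and 1.51, *Sema3a* 1.20 and 0.90, *Sema3d* 0.72 and 0.53, *Sema5a* 0.29 and 0.35, *Sema6a* 0.62 and 0.56, *Plxnb1* 0.066 and 0.24, and *Plxnb3* 0.14 and 0.24. In the same order *Slit2* had 0.069 and 0.0016, *Slit3* 0.10 and 0.32, *Robo1* 0.71 and 0.75, *Robo2* 1.32 and 1.26, and *Ntn1* 0.19 and 0.49, and in the latter alone *Sema3f* had −0.050 and *Hbb-bs* −0.14. Leaving out 1 library gave −2.09 to 0.74 for *Epha6*, −0.15 to 0.25 for *Epha10*, −0.0067 to 0.18 for *Sema3f*, −0.042 to 0.19 for *Sema4g*, −0.10 to 0.50 for *Sema6c* and −0.10 to 0.61 for *Sema7a*.

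Only replicate numbers 1 and 2 occur in both stages. With the replicate number as a block, the stage term therefore rested on embryos 1 and 2 and adults 1 and 2. With this block, 8 and 7 members were called and the median was 0.04. *Epha2* (1.92), *Sema3c* (1.98), *Ntn4* (−1.59) and *Robo3* (−7.48, adjusted p = 0.0799) were then no longer called and *Slit2* (−2.08) was added, and *Epha10* had −0.38, *Plxna2* −0.33 and *Plxnb2* −0.030. Replicates of the same number in the 2 stages deviated from their groups with r = 0.0303 and −0.0145, so the numbers were not treated as pairs. The correction without embryos 1 and 4, and all alternatives for members without values in every library and for pathway and marker genes, were added after seeing the data.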
